A study of Homo sapiens with 12 samples.

Results

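Forkhead box (FOX) genes encode transcription factors that share the forkhead, or winged-helix, DNA-binding domain. A list of 40 of them was followed among 19970 protein-coding genes of the autosomes and chromosome X. It was given by name and not by any measured value, although it was chosen with earlier results of these data known. All 40 were found in the gene table. The measurements came from MKL-1, an established line of Merkel cell carcinoma, a neuroendocrine skin cancer. Cells were given 3 µM EPZ011989, an inhibitor of the histone methyltransferase EZH2, in 1% ethanol, or 1% ethanol alone (vehicle). They were harvested on day 6 after the medium was renewed on day 3. CUT&RUN, in which an antibody-tethered nuclease releases the DNA around its target, was then run for H3K27me3, for H3K4me3 and with control IgG on each treated culture. This gave 12 libraries in 6 groups of 2 replicates. All samples came from 1 cell line treated in duplicate, so p-values measure the spread between repeated treatments of that line, and part of that spread may be technical.

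H3K27me3 is written by EZH2 in Polycomb repressive complex 2 and lies over silenced developmental genes, often as broad domains. H3K4me3 lies around the starts of genes that are transcribed or ready for transcription, and the 2 marks together define the state called bivalent. FOX genes are known from both sides of this division. FOXA, FOXC, FOXD and FOXF factors build particular tissues in the embryo and are classical Polycomb targets elsewhere, whereas FOXO, FOXK, FOXM1, FOXP and FOXJ2/3 factors act in growth control, stress, cell division or gene repression in many cell types. Of Merkel cell carcinoma markers from a fixed list, among them ATOH1, SOX2, INSM1 and KRT20, 12 of 12 carried H3K4me3 in both vehicle libraries. For other cell types the same count was 3 of 7 fibroblast, 1 of 6 keratinocyte, 3 of 6 lymphoid and myeloid, and 1 of 5 endothelial markers. Over all 19970 genes the share was 65.0%.

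The 250 bases upstream of the annotated start are shown for 7 members that stand for the states described below, 5′ to 3′ on the gene's own strand, from RefSeq on GRCh38.p14. Capitals mark CG dinucleotides (CpG), since CpG-rich promoters are the usual place of both marks. FOXF2 (chr6:1389326-1389575, plus strand, 20 CpG), FOXD3 (chr1:63322317-63322566, plus strand, 24 CpG) and FOXQ1 (chr6:1311848-1312097, plus strand, 29 CpG) carried both marks.
FOXF2: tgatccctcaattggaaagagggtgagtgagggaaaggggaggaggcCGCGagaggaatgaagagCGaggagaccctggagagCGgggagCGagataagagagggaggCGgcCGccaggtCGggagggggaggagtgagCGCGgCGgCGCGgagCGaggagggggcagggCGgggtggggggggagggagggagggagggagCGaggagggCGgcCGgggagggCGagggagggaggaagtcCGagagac
FOXD3: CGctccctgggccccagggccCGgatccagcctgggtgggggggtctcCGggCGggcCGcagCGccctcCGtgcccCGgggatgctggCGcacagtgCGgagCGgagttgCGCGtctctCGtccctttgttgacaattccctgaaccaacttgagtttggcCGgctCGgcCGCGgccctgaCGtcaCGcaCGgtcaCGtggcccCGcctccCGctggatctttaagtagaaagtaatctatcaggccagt
FOXQ1: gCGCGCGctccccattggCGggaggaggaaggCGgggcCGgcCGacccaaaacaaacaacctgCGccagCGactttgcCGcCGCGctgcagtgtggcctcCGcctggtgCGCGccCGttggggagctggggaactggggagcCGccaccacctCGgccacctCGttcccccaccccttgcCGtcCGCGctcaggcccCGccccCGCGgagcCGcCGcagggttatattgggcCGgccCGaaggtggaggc
FOXN1 (chr17:28506098-28506347, plus strand, 8 CpG) and FOXI1 (chr5:170105647-170105896, plus strand, 14 CpG) carried H3K27me3 and no H3K4me3.
FOXN1: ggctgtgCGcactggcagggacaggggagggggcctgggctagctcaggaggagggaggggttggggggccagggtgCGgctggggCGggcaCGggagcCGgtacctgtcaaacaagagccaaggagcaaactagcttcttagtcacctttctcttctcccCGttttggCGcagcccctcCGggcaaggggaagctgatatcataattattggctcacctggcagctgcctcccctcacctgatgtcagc
FOXI1: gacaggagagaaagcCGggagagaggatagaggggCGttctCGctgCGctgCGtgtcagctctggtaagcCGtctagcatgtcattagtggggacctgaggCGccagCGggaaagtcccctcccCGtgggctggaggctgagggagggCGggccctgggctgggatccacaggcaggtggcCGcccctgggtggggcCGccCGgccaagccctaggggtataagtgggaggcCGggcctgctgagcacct
FOXA1 (chr14:37595250-37595499, minus strand, 26 CpG) and FOXJ2 (chr12:8032466-8032715, plus strand, 42 CpG) carried H3K4me3 and no H3K27me3.
FOXA1: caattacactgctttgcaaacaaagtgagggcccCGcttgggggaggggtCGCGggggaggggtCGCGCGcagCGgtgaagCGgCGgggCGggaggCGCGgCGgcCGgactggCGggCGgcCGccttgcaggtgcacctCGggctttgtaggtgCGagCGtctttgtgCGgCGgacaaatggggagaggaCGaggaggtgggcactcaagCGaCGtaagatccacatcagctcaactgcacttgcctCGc
FOXJ2: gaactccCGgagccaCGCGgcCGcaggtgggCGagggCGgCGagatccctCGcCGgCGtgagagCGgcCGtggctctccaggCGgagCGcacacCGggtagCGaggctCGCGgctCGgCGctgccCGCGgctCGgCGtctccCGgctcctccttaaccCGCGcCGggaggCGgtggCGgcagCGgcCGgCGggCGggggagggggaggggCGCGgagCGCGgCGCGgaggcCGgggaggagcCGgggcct

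Each gene was scored in each library by its covered length, the bases under the authors' peaks within 2500 bp of either end of the gene. Member windows were 6299 to 10002 bp long, because the end windows of short genes overlapped in 20 members. The depth of the libraries is unknown, since only peak lists were used. The vehicle H3K27me3 libraries held 40782 and 44287 peaks and the EPZ011989 ones 363 and 22, at an estimated background of 1.12, 1.63, 0.373 and 0.148 fragments per base. This estimate takes each library as its own background, since the control used in calling is not given in the sources used here. The H3K4me3 libraries held 21086 to 23804 peaks. The 4 IgG libraries held 4 to 38 peaks in all, and 0 of the 40 members had one.

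In vehicle cells, most of these FOX genes had some H3K27me3 in the lists as deposited, though under 50% of them with stronger peaks only. Both vehicle libraries listed a H3K27me3 peak at 29 of 40 members (72.5%), against 36.9% of all genes. H3K4me3 was also present in both vehicle libraries at 29 of 40, against 65.0% of all genes. Both marks were found in all 4 vehicle libraries at 18 members (45.0%), against 24.2% of all genes. These were FOXA2, FOXA3, FOXB1, FOXB2, FOXC1, FOXD1, FOXD2, FOXD3, FOXF2, FOXJ1, FOXK1, FOXL2, FOXN3, FOXO1, FOXP1, FOXP2, FOXP4 and FOXQ1. H3K27me3 without H3K4me3 was found at 9 members, FOXC2, FOXD4, FOXF1, FOXI1, FOXI2, FOXL1, FOXN1, FOXR1 and FOXS1. H3K4me3 without H3K27me3 was found at another 9, FOXA1, FOXH1, FOXJ2, FOXJ3, FOXK2, FOXM1, FOXN4, FOXO3 and FOXO6. The last 4 differed between replicates: FOXE3 and FOXI3 had H3K27me3 in both vehicle libraries and H3K4me3 in 1, and FOXE1 and FOXN2 had H3K4me3 in both and H3K27me3 in 1. With peaks of −log10 q of 5 or more alone, 18 of 40 members (45.0%) had H3K27me3 in both vehicle libraries, against 18.2% of all genes, and 10 of 40 had both marks, against 10.7%. The libraries were made from bulk cells, so both marks in a window cannot be placed on the same allele or in the same cell.

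The extent of H3K27me3 set the members apart further. The mean of the vehicle libraries covered more than 50% of the window at 16 of 40 members, against 10.1% of all genes. It covered 50% or less at 15 members and was 0 at 9. In both vehicle libraries the whole window was covered at 7 members: FOXB1 (8134 bp), FOXB2 (6299 bp), FOXC2 (7900 bp), FOXF1 (9896 bp), FOXF2 (10002 bp), FOXL1 (9930 bp) and FOXL2 (7914 bp).

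**Figure D1:**
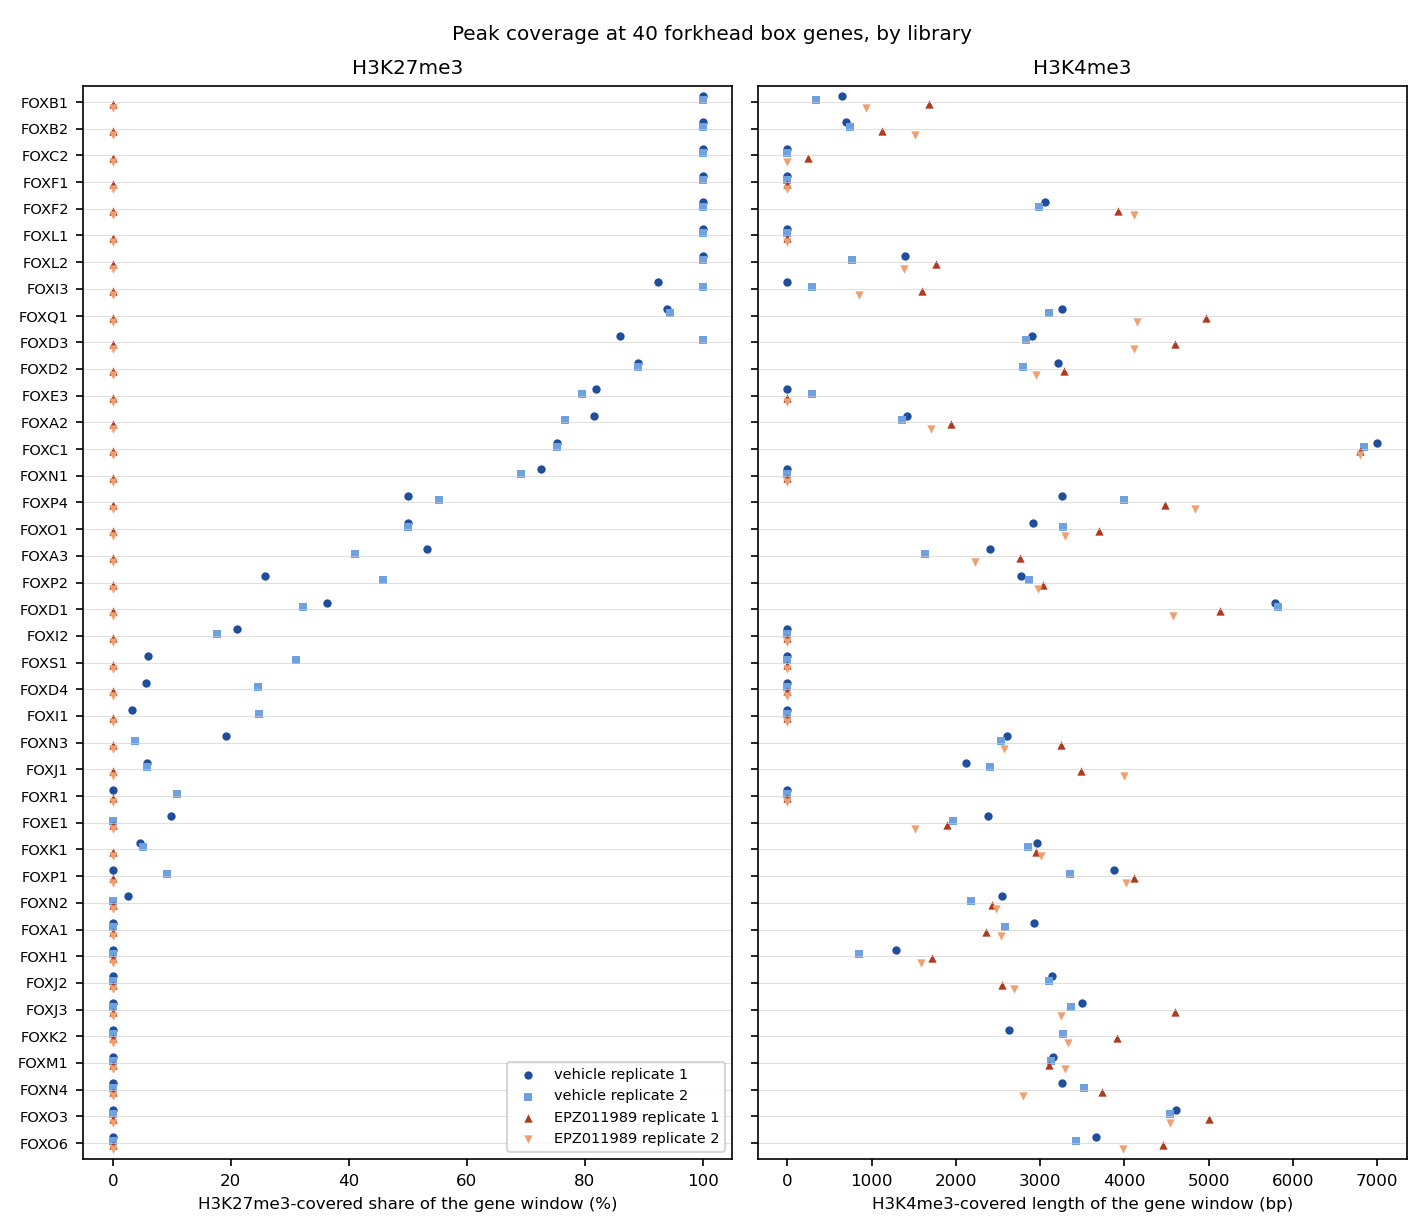
Covered length at each of the 40 FOX genes in every library, for H3K27me3 as a share of the gene window (left, %) and for H3K4me3 in bp (right), with 1 point per library. Genes are ordered by their mean H3K27me3 share in vehicle; all EPZ011989 points for H3K27me3 lie at 0, while the H3K4me3 points of both treatments stay in the same range, up to 7004 bp at FOXC1.

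Members were also grouped by role from fixed lists, although several are known from other tissues too. FOXQ1 was placed with the mesoderm and mesenchyme factors, and FOXD1, FOXD2 and FOXE1 with the neural and ectodermal ones. Counts by group depend on such choices. As grouped here, the mesoderm and mesenchyme factors carried the broadest H3K27me3. All 7 of them had it in both vehicle libraries, 6 with more than 50% of the window covered, and 3 of the 7 (FOXC1, FOXF2 and FOXQ1) also had H3K4me3 in both. FOXF1, needed for lung and gut mesenchyme and for vessels, had 9896 bp of H3K27me3 in each vehicle library and 0 bp of H3K4me3 in all 4 libraries. FOXL1, a factor of the gut mesenchyme, had 9930 bp of H3K27me3 in each vehicle library and likewise 0 bp of H3K4me3 in all 4. FOXC2, needed for lymphatic vessel valves, had 7900 bp of H3K27me3 in each vehicle library. Its H3K4me3 was 0 and 0 bp in vehicle and 249 and 0 bp with EPZ011989.

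FOXF2, a paralogue of FOXF1, combined a fully covered window of 10002 bp in both vehicle libraries with 3063 and 2984 bp of H3K4me3. FOXQ1, known for its part in hair and epithelial differentiation, had 7188 and 7233 bp of H3K27me3 and 3255 and 3110 bp of H3K4me3. In these 2 genes, every H3K4me3 base of the window lay under a H3K27me3 peak in both vehicle replicates. FOXC1, a factor of eye and skull mesenchyme, had 6765 and 6764 bp of H3K27me3 and the longest H3K4me3 of the 40 genes, 7004 and 6839 bp in vehicle. The overlap at FOXC1 was 96.6% and 98.9% of its H3K4me3 bases. FOXS1 had 382 and 1960 bp of H3K27me3, from an area that belongs mainly to its neighbour DUSP15.

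Among the 11 neural and ectodermal factors, 10 had H3K27me3 in both vehicle libraries, 6 with more than 50% of the window covered, and 5 had both marks. FOXB1 and FOXB2, paralogues of the developing brain, were fully covered by H3K27me3. Beneath it H3K4me3 was short, 655 and 337 bp at FOXB1 and 701 and 744 bp at FOXB2. FOXD3, a factor of neural crest and of pluripotent cells, had 6501 and 7562 bp of H3K27me3 and 2899 and 2829 bp of H3K4me3. FOXD2, a kidney and mesenchyme factor, had 6812 and 6810 bp of H3K27me3 and 3210 and 2803 bp of H3K4me3. FOXI3, which acts in hair, tooth and ear precursors, had 9248 and 10002 bp of H3K27me3 against 0 and 290 bp of H3K4me3. FOXE3, the lens factor, had 5540 and 5385 bp of H3K27me3 against 0 and 293 bp of H3K4me3.

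The remaining neural and ectodermal members were less covered. FOXD1, known from kidney stroma and forebrain, had 2722 and 2421 bp of H3K27me3 beside a long H3K4me3 region of 5788 and 5821 bp. FOXE1, the thyroid factor, had 841 and 0 bp of H3K27me3. FOXI1, FOXI2 and FOXD4 had between 285 and 2192 bp of H3K27me3 and no H3K4me3 peak. FOXD4 has near-identical copies elsewhere in the genome, and its values are uncertain where reads could be placed on either copy.

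The 3 FOXA factors, pioneer factors that open chromatin in endoderm, differed from one another. FOXA1 had 0 bp of H3K27me3 in all 4 libraries and 2933 and 2582 bp of H3K4me3 in vehicle. FOXA2 had 7734 and 7268 bp of H3K27me3 with 1421 and 1361 bp of H3K4me3 wholly beneath it. FOXA3 lay between them, at 5319 and 4113 bp of H3K27me3 and 2401 and 1635 bp of H3K4me3. Of these H3K4me3 bases, 70.5% and 58.1% lay under H3K27me3. The FOXA3 window overlaps that of SYMPK, so its peaks may belong to either gene.

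The 6 factors of Nodal signalling, cilia, gonad, thymus and other single tissues were mixed, with 4 of 6 marked by H3K27me3 in both vehicle libraries and 2 carrying both marks. FOXL2, the granulosa cell factor of the ovary, was fully covered at 7914 bp, with 1401 and 764 bp of H3K4me3. FOXN1, the factor of thymic epithelium and hair, had 7262 and 6922 bp of H3K27me3 and no H3K4me3 peak in any library. FOXJ1, the regulator of motile cilia, had 582 and 579 bp of H3K27me3 and 2122 and 2405 bp of H3K4me3. FOXR1 had 5 and 1084 bp of H3K27me3 only. FOXH1, the SMAD partner in Nodal signalling, and FOXN4, a retinal progenitor factor, had H3K4me3 alone.

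Among the growth, stress and cell cycle factors, H3K27me3 was about as common as over all genes. All 6 of them carried H3K4me3 in both vehicle libraries, against 65.0% of all genes. H3K27me3 was carried by 2, against 36.9% of all genes. None had it over more than 50% of the window, against 10.1% of all genes. FOXM1, which drives genes of mitosis, had 3149 and 3129 bp of H3K4me3 and no H3K27me3. Its window overlaps those of ITFG2, TEX52 and RHNO1. The windows of FOXA1 and FOXN4 overlap those of TTC6 and MYO1H. The H3K4me3 of these 3 members may belong to either gene. The window of FOXJ2 overlaps that of C3AR1. All FOXJ2 H3K4me3 lay on its start side, with 0 bp on the far side in every library. It could belong to C3AR1 only if the windows overlap at the start side. FOXO3 and FOXO6, targets of insulin and AKT signalling, had 4610 and 4542 bp and 3661 and 3426 bp of H3K4me3, also without H3K27me3. FOXO1, from the same FOXO branch, was the exception. Its H3K27me3 was 5001 bp in both vehicle libraries, the whole window of its start and none of its far end, and it covered all of the 2913 and 3272 bp of H3K4me3. FOXK2 had no H3K27me3, and FOXK1 had 470 and 518 bp that shared 0 bases with its H3K4me3. The window of FOXK1 overlaps that of AP5Z1. All FOXK1 peaks of both marks lay on its start side, with 0 bp on the far side in every library. They could belong to AP5Z1 only if the windows overlap at the start side.

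The last group held the 7 other members, FOXJ2, FOXJ3, FOXN2, FOXN3, FOXP1, FOXP2 and FOXP4, of which FOXP2 and FOXP4 are known from particular tissues. All 7 had H3K4me3 in both vehicle libraries and 4 had H3K27me3 as well. FOXP4, a lung and gut factor, had 5001 and 5525 bp of H3K27me3 and 3263 and 4001 bp of H3K4me3. FOXP2, known from speech development, had 2580 and 4575 bp of H3K27me3 and 2778 and 2874 bp of H3K4me3. FOXP1 had 12 and 926 bp of H3K27me3 and FOXN3 1924 and 385 bp, a wide spread between replicates at both. FOXN2 had 256 and 0 bp, and FOXJ2 and FOXJ3 had none.

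The H3K27me3 domains of several members reached far beyond the gene. Vehicle peaks of both replicates were merged to measure this. FOXC2 and FOXL1 lay 8.82 kb apart inside 1 region of 306 kb, and FOXF1, 51.4 kb from FOXC2, lay in another of 260 kb. The region of FOXC2 and FOXL1 held the end of MTHFSD, a gene with H3K4me3 at that end, and MTHFSD itself occupied the gap between the 2 regions. Of the 306 kb, 1.97 kb was still listed in EPZ011989 replicate 1, outside the windows of both members, and none in replicate 2. On chromosome 6, FOXQ1, FOXF2 and FOXC1 lay in separate regions of 9.43, 27.8 and 9.93 kb, although FOXF2 was only 74.8 kb from FOXQ1. Regions of 33.2 kb at FOXL2, 31.4 kb at FOXP4, 31.2 kb at FOXN1, 28.3 kb at FOXB1, 23.1 kb at FOXI3 and 20.4 kb at FOXB2 followed in length. Besides MTHFSD, other coding genes that overlapped the longest region at a member were FOXL2NB at FOXL2, SLC13A2 at FOXN1, SYMPK at FOXA3 and DUSP15 at FOXS1.

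**Figure D2:**
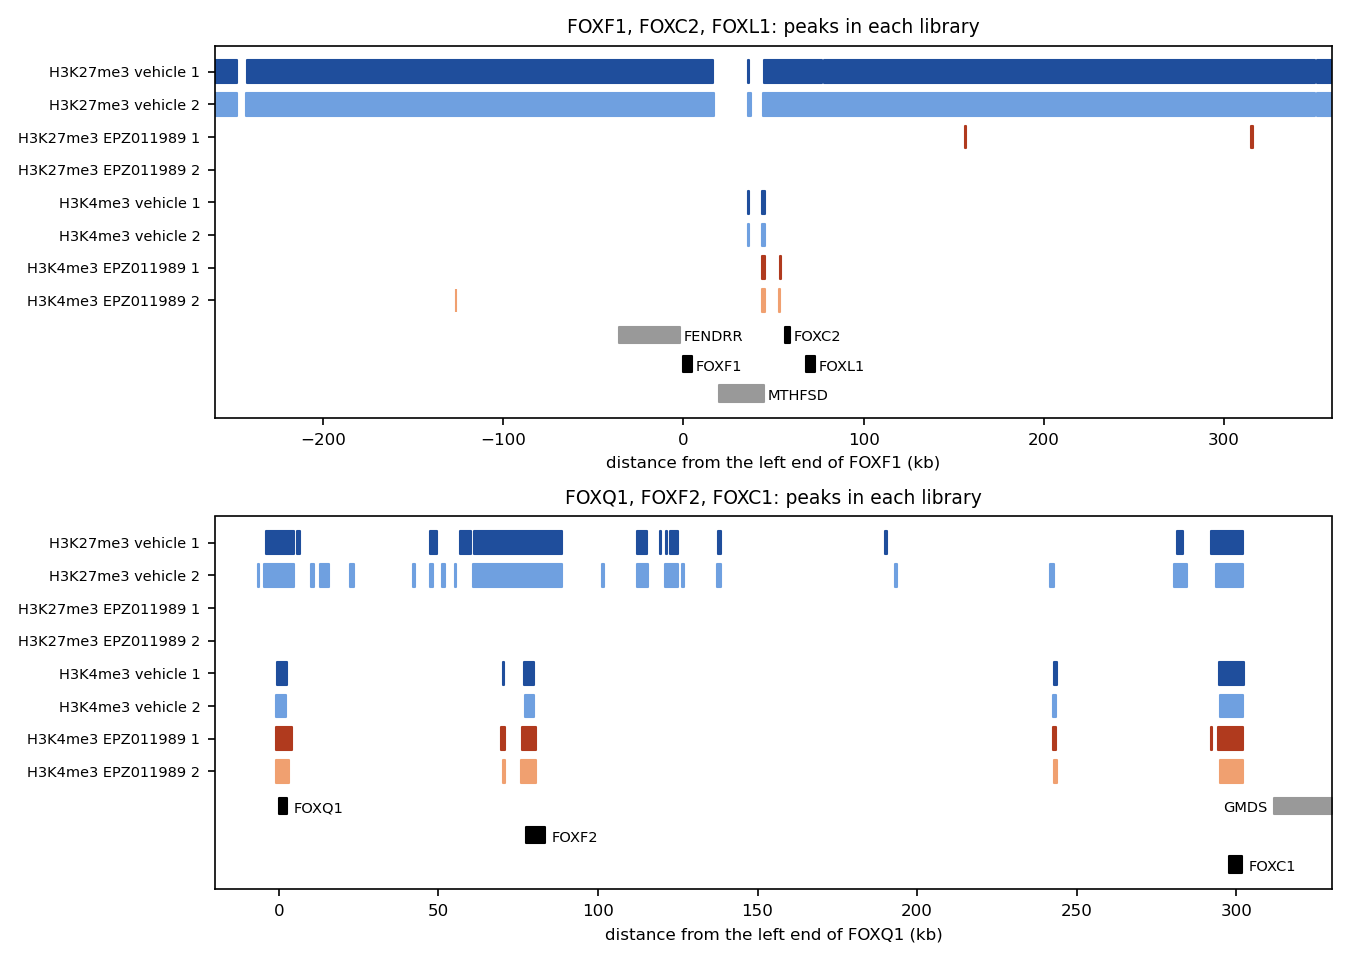
Peaks of each H3K27me3 and H3K4me3 library around FOXF1, FOXC2 and FOXL1 (top) and around FOXQ1, FOXF2 and FOXC1 (bottom), drawn to scale against distance in kb from the left end of FOXF1 or FOXQ1; black bars are members and grey bars other genes. The upper 3 genes sit in 2 long vehicle H3K27me3 domains on either side of MTHFSD, and the lower 3 in separate short ones that also hold H3K4me3.

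The fold that the authors' peak caller gave each peak, a ratio of pileup to local background, also differed widely among members within each vehicle list. The strongest H3K27me3 peak at FOXF1 had a fold of 18.4 and 20.0 and stood above 99.9% of the peaks of either list. FOXC2 and FOXL1 shared a peak of 15.4 and 17.8. FOXB2 reached 13.6 and 14.6 and FOXB1 12.9 and 14.8. Fold did not follow covered length throughout: FOXF2, fully covered, had 7.19 and 8.45, while FOXA3, with 47.2% of its window covered, had 10.1 and 11.5. FOXC1, with 75.3% covered, had 3.42 and 3.63 and stood above 61.9% and 75.6% of the peaks. FOXN3, at 2.89 and 2.81, stood above 16.6% and 21.2%.

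No H3K27me3 peak remained at any member with EPZ011989. All 40 windows held 0 bp of H3K27me3 in both EPZ011989 libraries, and the 29 members marked in both vehicle libraries were therefore marked in vehicle alone, as were 36.8% of all genes. Covered length, tested with limma over the 9600 genes with a H3K27me3 peak, fell at 22 of the 31 members tested, against 60.2% of all genes tested (adjusted p under 0.05). All 31 members entered the test through a vehicle peak alone, so the direction was fixed by this filter, and the count tells only where the vehicle values were even enough to pass. At an unadjusted p under 0.05, 23 members were lower, against 64.1% of all genes tested. No gene was called higher, at an adjusted or an unadjusted p under 0.05. The median difference over the 31 members, −5263 bp beside −2235 bp over all genes tested, is for the same reason their vehicle coverage with its sign turned. At FOXA2 covered length fell by 7501 bp (SE 225, limma adjusted p = 0.00185), at FOXD3 by 7031.5 bp (SE 498, limma adjusted p = 0.00701), and at FOXI3 by 9625 bp (SE 366, limma adjusted p = 0.00303). The 9 members not called were FOXD4, FOXE1, FOXI1, FOXN2, FOXN3, FOXP1, FOXP2, FOXR1 and FOXS1. FOXP2 was nearest to the threshold, at −3577.5 bp (SE 886, limma adjusted p = 0.0603).

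These calls have limits that touch the members directly. At 8 members (FOXB1, FOXB2, FOXC2, FOXF1, FOXF2, FOXL1, FOXL2 and FOXO1), as at 14.2% of genes tested, both groups had no spread at all, and their p-values carry no information beyond that. Leaving out a library changed the count over all genes: 3212 genes were called lower without EPZ011989 replicate 1, and 3209 lower and 7 higher without replicate 2. Of the members, 16 of 31 were called in either case. FOXA2, FOXA3, FOXD3, FOXI2, FOXI3 and FOXK1 were lost, with limma adjusted p of 0.0626 and 0.0623 at FOXA2, 0.109 and 0.108 at FOXD3 and 0.0854 and 0.0853 at FOXI3. Without vehicle replicate 1 or 2 the remaining spread came from EPZ011989 libraries at 0 bp, so 29 of 29 and 31 of 31 members, and 8884 and 8034 genes, were called by construction. Quantile normalization, which gives all 4 libraries the same distribution of values, moved the median difference over all genes from −2235 to 10.5 bp. Of the 31 members tested, it left 17 lower and called 6 higher, FOXE1, FOXJ1, FOXK1, FOXN2, FOXP1 and FOXR1. All 6 of them were at 0 bp in both EPZ011989 libraries. Over all 9600 genes tested, quantile normalization called 3599 lower and 3309 higher.

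Background was lower in both EPZ011989 H3K27me3 lists (0.373 and 0.148 fragments per base) than in vehicle, and this bears on which members' peaks could have been listed. When the fold of each member's strongest vehicle peak was rescaled to the background of EPZ011989 replicate 1, it still reached the lowest fold listed there, 4.37, at 11 of 29 members in both vehicle libraries. These were FOXA2, FOXA3, FOXB1, FOXB2, FOXC2, FOXD2, FOXF1, FOXI3, FOXL1, FOXL2 and FOXN1. At the background of replicate 2 it reached the lowest listed fold, 4.36, at FOXC2, FOXF1 and FOXL1. For the other members, a loss of the mark and a peak too weak to be listed at the depth of replicate 2 cannot be told apart.

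At H3K4me3 no FOX gene passed the test between treatments. No gene of 13793 tested with limma passed an adjusted p of 0.05 in either direction. The smallest adjusted p was 0.0644 over all genes and 0.180 over the 32 members tested. At an unadjusted p under 0.05, 10 members had longer H3K4me3 with EPZ011989, against 8.41% of all genes tested, and 2 had shorter, against 1.48%. Both EPZ011989 values lay above both vehicle values at 15 of the 32 members (46.9%), against 24.4% of all genes tested, and below them at 5 (15.6%), against 12.7%. The median difference, EPZ011989 minus vehicle, was 419.5 bp over the members and 52 bp over all genes tested. In data simulated with the spread of the vehicle pair, the test called 0 of 200 genes lengthened by 500 bp, so it cannot decide on differences of that size. Without vehicle replicate 2 the members' median was 227 bp, and without EPZ011989 replicate 1 it was 205.5 bp, beside −82.75 bp over all genes.

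Under stricter definitions, 2 members had both EPZ011989 values at least 1000 bp above both vehicle values, FOXD3 and FOXJ1, against 0.741% of all genes. No member had them at least 1000 bp below, against 0.025%. No member gained H3K4me3 in both EPZ011989 libraries from none in vehicle, against 0.921% of all genes, and no member lost it, against 0.14%. Single libraries decided these small counts. Without EPZ011989 replicate 2, 6 members were longer by 1000 bp or more (FOXB1, FOXD3, FOXI3, FOXJ1, FOXJ3 and FOXQ1) and FOXC2 counted as gained. Without vehicle replicate 2, FOXI3 counted as gained, without vehicle replicate 1 FOXE3 counted as lost, and without EPZ011989 replicate 1 FOXD1 counted as shorter.

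FOXD3 showed the largest difference of the 32 members tested. Its H3K4me3 covered 2899 and 2829 bp in vehicle and 4602 and 4114 bp with EPZ011989, a difference of 1494 bp (SE 244, limma adjusted p = 0.180). On its start side alone the difference was 555.5 bp, below the 997.5 bp of FOXF2 and the 772.5 bp of FOXP4 on theirs. FOXJ1 followed with 2122 and 2405 bp in vehicle and 3483 and 3997 bp with EPZ011989, a difference of 1476.5 bp (SE 260, limma adjusted p = 0.186), and of 320.5 bp with windows of 1000 bp. Both EPZ011989 libraries lay above both vehicle libraries at each gene. The window of FOXJ1 is shared with RNF157, and its H3K4me3 cannot be assigned to one of the 2 genes.

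FOXQ1 went from 3255 and 3110 bp in vehicle to 4966 and 4156 bp with EPZ011989 (difference 1378.5 bp, SE 322, limma adjusted p = 0.284). On its start side alone the values were 3225 and 3110 bp against 3439 and 3406 bp, so most of the added length lay toward the far end of this short gene. FOXF2 had 3063 and 2984 bp in vehicle and 3927 and 4115 bp with EPZ011989 (difference 997.5 bp, SE 200, limma adjusted p = 0.214), all of it on the start side. With windows of 1000 and 5000 bp the difference was 451.5 and 1540 bp. FOXP4 had 3263 and 4001 bp against 4480 and 4836 bp, a difference of 1026 bp (SE 326, limma adjusted p = 0.402). It was 657 bp without vehicle replicate 1, and 18.5 bp with windows of 1000 bp and 2118 bp with 5000 bp. In these 3 genes as well the groups did not overlap.

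At 3 further members under H3K27me3, short vehicle peaks stood beside longer ones with EPZ011989. FOXI3 had 0 and 290 bp in vehicle and 1598 and 850 bp with EPZ011989, a difference of 1079 bp that was 705 bp without EPZ011989 replicate 1. FOXB1 had 655 and 337 bp against 1680 and 933 bp, and FOXB2 701 and 744 bp against 1120 and 1514 bp. The EPZ011989 values lay above the vehicle values at each of the 3. FOXA2, at 1421 and 1361 bp in vehicle and 1942 and 1705 bp with EPZ011989, and FOXL2, at 1401 and 764 bp and 1764 and 1387 bp, differed less, and the groups overlapped at FOXL2.

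Members without H3K27me3 were found on both sides. FOXO6 had 3661 and 3426 bp in vehicle and 4453 and 3982 bp with EPZ011989. FOXK2 had 2633 and 3268 bp against 3909 and 3330 bp, and FOXH1, whose window overlaps those of KIFC2 and PPP1R16A, had 1285 and 855 bp against 1715 and 1592 bp. In the other direction, FOXJ2 had 3144 and 3111 bp in vehicle and 2544 and 2685 bp with EPZ011989. FOXA1 had 2933 and 2582 bp against 2359 and 2539 bp. The largest shorter value was at FOXD1, which does carry H3K27me3, with 5788 and 5821 bp in vehicle and 5133 and 4574 bp with EPZ011989 (difference −951 bp, SE 322, limma adjusted p = 0.438). FOXE1, with H3K27me3 in 1 vehicle library, had 2382 and 1961 bp against 1896 and 1520 bp. FOXM1, without H3K27me3, stayed between 3111 and 3293 bp in all 4 libraries. FOXK1 and FOXC1, which both carry H3K27me3, stayed between 2858 and 3015 bp and between 6794 and 7004 bp. At FOXC1 both EPZ011989 values still lay below both vehicle values.

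**Figure D3:**
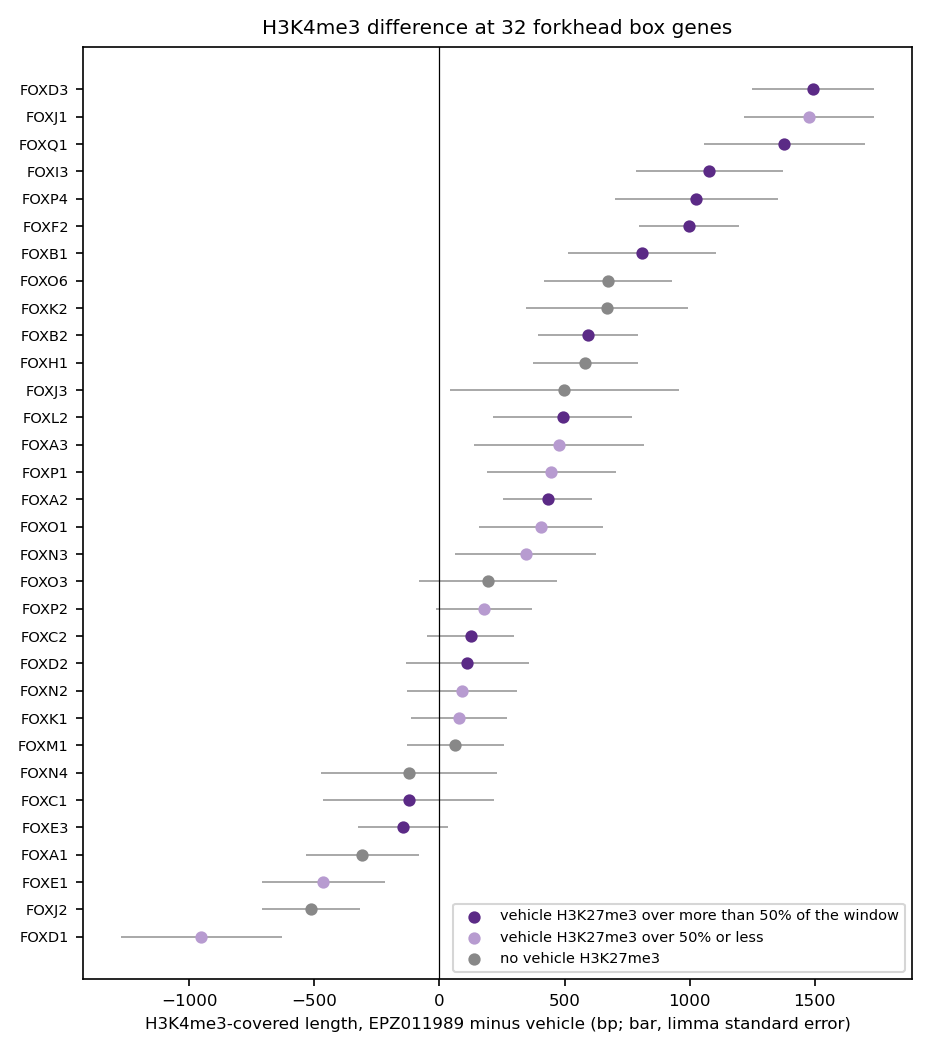
Difference in H3K4me3-covered length, EPZ011989 minus vehicle (bp), at the 32 FOX genes with a H3K4me3 peak in at least 1 library; points are differences of group means (n = 2 each), bars 1 limma standard error, and colour the mean H3K27me3 share of the window in vehicle. Values run from −951 bp at FOXD1 to 1494 bp at FOXD3, and none passed an adjusted p of 0.05.

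The members were split by their vehicle H3K27me3 to describe where H3K4me3 was longer with EPZ011989; the difference between the 2 classes was not tested. Of the 21 tested members with H3K27me3 in both vehicle libraries, 12 (57.1%) had both EPZ011989 values above both vehicle values, and over all such genes the share was 41.3%. The median difference was 447 bp for these members and 221.5 bp for all such genes. Of the 11 other members tested, 3 (27.3%) lay above, with a median of 91.5 bp. Over all genes of that kind the share was 13.4% and the median −24 bp. With H3K27me3 over more than 50% of the window, 8 of 13 members (61.5%) lay above, near the 60.1% of all such genes. The 2 EPZ011989 H3K4me3 libraries had a higher estimated background, 1.48 and 1.24 fragments per base, than the vehicle ones, 0.572 and 0.857, and the peaks of EPZ011989 replicate 1 covered 46.1 Mb against 39.0 to 42.0 Mb in the other 3. The part of these differences in the H3K4me3 values was not tested.

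Around annotated starts the 2 marks had different shapes. Starts were known for 30 members. Averaged over the 22 of these with H3K27me3 in both vehicle libraries, H3K27me3 covered up to 72.7% and 77.3% of bases in a plateau over several kb. It was 40.5% and 45.5% at the bin farthest upstream, after a dip to 31.8% and 33.7% nearer the start, and 27.3% and 27.6% at the bin farthest downstream. H3K4me3 in the same genes reached 63.6% and 59.1% of bases near the start in vehicle and to 72.7% and 71.8% with EPZ011989. At the 8 other members it reached 100% in all 4 libraries, and H3K27me3 at the start itself was 0.

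**Figure D4:**
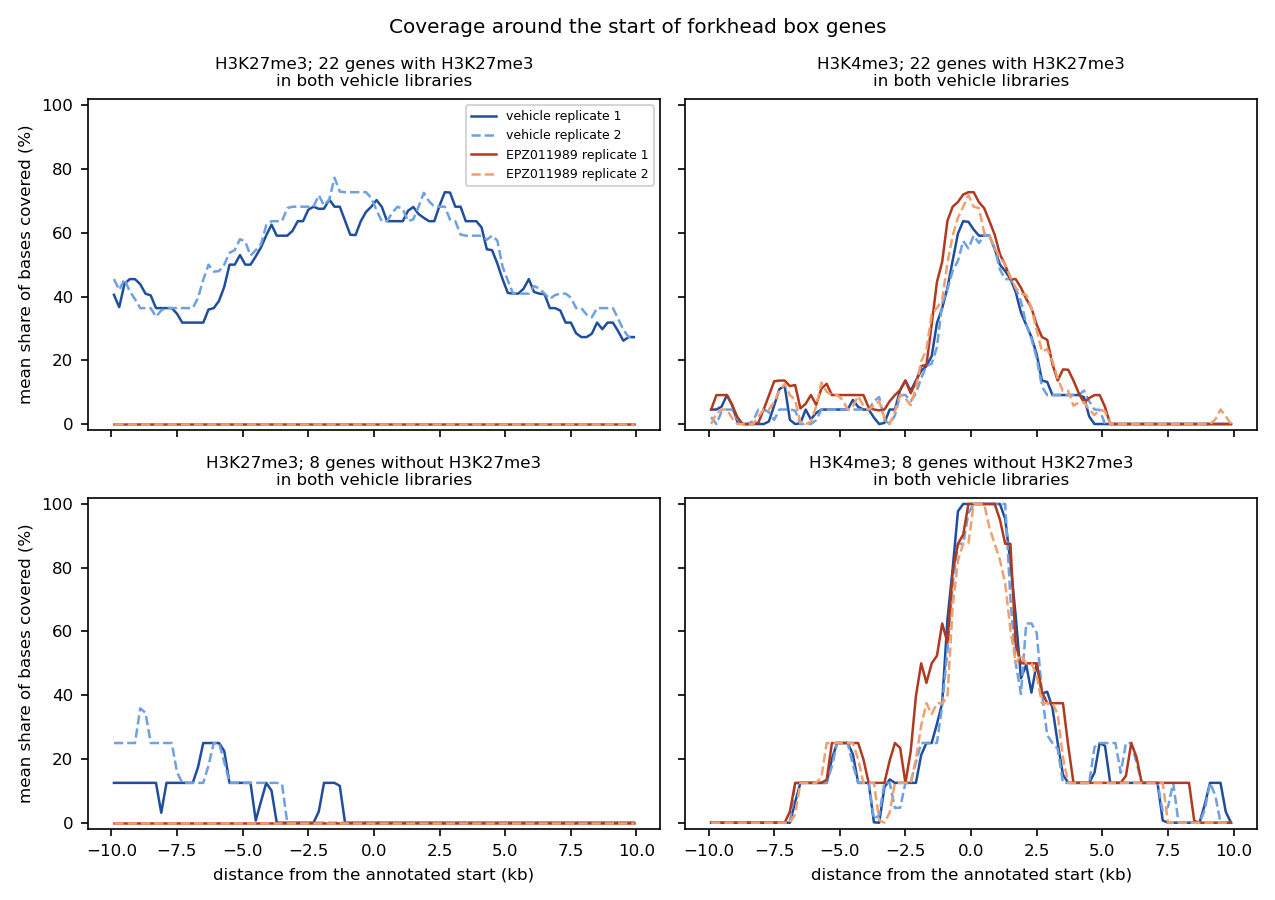
Mean share of bases covered (%) in bins of 200 bp within 10 kb of the annotated start (distance in kb, upstream negative), for H3K27me3 (left) and H3K4me3 (right), in 22 members with H3K27me3 in both vehicle libraries (top) and 8 others (bottom), with 1 line per library. H3K27me3 forms a broad plateau in vehicle and lies at 0 with EPZ011989, whereas H3K4me3 forms a peak at the start in all 4 libraries.

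The promoters shown above were compared with those of the other members over 300 bases, 250 before and 50 after the start. A promoter was listed for 30 of 40 members. They held a median of 30.5 CpG dinucleotides (range 1 to 55), and 15812 coding genes held a median of 22. The 24 members with H3K4me3 in both vehicle libraries had a median of 32.5, and the 5 with it in neither had 16. Over all coding genes the same medians were 26 and 5. FOXN1 (12 in 300 bases), FOXI1 (16), FOXD4 (16), FOXR1 (22) and FOXI2 (24) made up the group without H3K4me3. FOXK1 and FOXK2, with 55 each, were highest, and FOXP2, whose listed start differs from its outer gene end, was lowest with 1.

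Letters of 4 known promoter motifs were searched on both strands of these 300 bases. GGGCGG, the core of the SP1 site, which itself holds a CpG, was found in 24 of 30 members (80.0%) and in 58.3% of all coding promoters. CCAAT was found in 7 (23.3%) and in 36.4% of all. TATAAA was found in 1 member, FOXA3, and in 9.75% of all. GTAAACA, the core letters bound by forkhead factors themselves, was found in 0 of the 30 and in 2.68% of all.

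Genes that act with or under the FOX factors were taken from fixed lists. Of 30 genes of the FOXO pathway, 11 had H3K27me3 in both vehicle libraries and 26 had H3K4me3 in both, against 36.9% and 65.0% of all genes. H3K27me3 fell at 9 of the 16 tested (limma adjusted p under 0.05), AKT1, AKT2, BCL6, CAT, CDKN1A, FASLG, INSR, KLF2 and SGK1, with a list median of −1556.25 bp. This is no larger a share than the 60.2% of all genes tested, and in all these lists the tested genes had H3K27me3 peaks in vehicle alone, except COL1A1. BCL6, a repressor controlled by FOXO factors, had 5001 bp in both vehicle libraries, as FOXO1 did. SGK1, a kinase that phosphorylates FOXO factors, had 0 and 0 bp of H3K4me3 in vehicle and 1168 and 773 bp with EPZ011989. Of 12 FOXM1 targets of the cell cycle, 12 had H3K4me3 and 1, BIRC5, had H3K27me3 in both vehicle libraries. None of the 5 of them that were tested for H3K27me3 passed.

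The lists for tissue-restricted members came next. Of 12 endoderm partners of FOXA factors, 6 had H3K27me3 and 2 had H3K4me3 in both vehicle libraries, against 36.9% and 65.0% of all genes. H3K27me3 fell at 5 of 6 tested, against 60.2% of all genes tested, among them GATA4 and PDX1. Both of these were covered over all 10002 bp in both vehicle libraries. Of 12 mesenchyme partners of FOXC and FOXF factors, 9 had H3K27me3 (36.9% of all genes did) and it fell at 9 of 9 tested, against the same 60.2%, among them SHH, which signals to FOXF1 in the gut and lung, with 10002 bp in both vehicle libraries. Of 8 cilia genes under FOXJ1, 6 had H3K27me3, against 36.9% of all genes. H3K27me3 fell at 6 of 6 tested, again beside 60.2% of all genes, among them DNAI1 and TEKT1, both covered over 10002 bp. The genes tested in these partner and target lists had peaks in vehicle alone, so the filter fixed the direction. Their counts tell only where the vehicle values were even enough to pass. H3K4me3 passed the adjusted test at 0 genes of every one of these lists, and list medians of its difference ran from −150.75 bp for the FOXM1 targets to 390.75 bp for the cilia genes. At the other cell types' markers, H3K27me3 fell at 3 of 3 fibroblast, 1 of 4 keratinocyte, 3 of 5 lymphoid and myeloid and 3 of 3 endothelial genes tested, and at 0 of 3 Merkel cell carcinoma markers, counts too small to set against the 60.2% of all genes. COL1A1 was the only gene of the 10 lists with a H3K27me3 peak left, 2132 bp in EPZ011989 replicate 1 and 0 bp in replicate 2.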

How the data were processed

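CUT&RUN peak lists of 12 MKL-1 libraries, on the hg38 build, were used. MACS2 2.1.1.20160309, Bowtie2 2.2.9, SAMtools 0.1.19 and FastQC are named in the submitters' processing notes; the caller's settings, control and any spike-in scaling are not given in the sources used here. Each deposited peak has a −log10 q from the authors' calling and a fold, which is a ratio of pileup to background in the deposited lists. Peaks were called broad for H3K27me3 and narrow otherwise, by the deposited file types.

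From these lists, covered bp were summed within 2500 bp of either gene end (GRCh38.p14 gene table), with an overlap of 1 bp counted as marked. Values were compared with limma 3.58.1 (trend, robust) in R 4.3.3, on every gene that had a peak in any of the 4 libraries of a mark. They were adjusted by Benjamini-Hochberg at 0.05, after a check on simulated data. With 500, 1000 and 2000 bp of H3K4me3 added at 200 genes, 0, 119 and 199 of them were called. Among unchanged genes 0, 3 and 10 were called. The simulated H3K4me3 spread was that of the vehicle pair alone. With H3K27me3 set to 0 bp in 1 group at 200 of 9591 genes, 65 of the 200 were called. The other genes were left unchanged there. In the data, by contrast, only 39 and 2 genes had a H3K27me3 peak in the EPZ011989 libraries. The simulated share of H3K27me3 calls therefore does not carry over to the data. No scaling between libraries was made. Background in fragments per base was solved from the most frequent fold and its p in each list under a Poisson model. Python 3.11.15, numpy 2.4.6 and pandas 2.3.3 were used. Alternatives were windows of 1000 and 5000 bp, the start side alone, a −log10 q of 5 or more, an overlap of 500 bp, quantile normalization, share of window, no filter, the replicate number as a block, and leaving out each library.

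The members and gene lists were chosen with earlier results of these data known. Values in every library were given for members with the largest vehicle H3K27me3 share, with the largest H3K4me3 difference without overlap, or with a H3K4me3 gain, loss or call, and further members were given where their role called for it.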

Additional observations from a re-analysis of the deposited data

How the results depend on the processing

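Of the results that answer a comparison, 80 values under alternative settings stayed within the set limits and 25 moved. With peaks of −log10 q of 5 or more, 18 members had H3K27me3 in both vehicle libraries, 18 of them with none in either EPZ011989 library, and 10 had both marks. The H3K4me3 gain count of 0 became 1 with windows of 5000 bp (FOXC2), 1 with −log10 q of 5 or more and 1 with an overlap of 500 bp (FOXI3 in both), and 0 to 1 when a library was left out. The count of lost members ranged from 0 to 1, that of longer members from 3 to 6, beside 2 with all libraries, and that of shorter members from 0 to 1 when a library was left out. No member was longer by 1000 bp, a count of 0, with windows of 1000 bp, with the start side alone or with −log10 q of 5 or more. The median H3K27me3 difference was −3283.5 bp with windows of 1000 bp, −8028 bp with 5000 bp, −4203 bp on the start side and −6811 bp with −log10 q of 5 or more, and −5525 to −5263 bp when a library was left out. The median H3K4me3 difference was 67 bp with windows of 1000 bp and 205.5 to 524.5 bp when a library was left out. For H3K4me3, limma called 1 member with quantile normalization (FOXD3, adjusted p = 0.0361) and 5 with no filter (FOXB1, FOXD3, FOXI3, FOXJ1 and FOXQ1), all longer with EPZ011989; 89 and 491 genes were called longer, and 7 and 32 shorter, under these settings. Windows of 5000 bp called 35 genes longer and no member, and windows of 1000 bp called 2 longer and 4 shorter. The cause of these shifts was not tested; shorter windows hold fewer bases by construction. Without a filter, H3K27me3 could not be fitted. Most genes then have no spread, but the cause of the failure was not recorded.

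Replicates 1 and 2 share only a number between treatments. Deviations of same-numbered libraries correlated at 0.0162 for H3K27me3 (9600 genes) and −0.0297 for H3K4me3 (13793 genes). With the replicate number as a block, limma called 21 members lower for H3K27me3 (4555 genes; FOXD3 was lost, adjusted p = 0.0510) and 0 members for H3K4me3. All of this rests on 2 libraries per group of unknown depth.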

Other observations

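Non-coding genes named after FOX members or lying beside them were looked up after the data had been seen, with windows of the same kind. FOXC2-AS1, which overlaps FOXC2, had H3K27me3 over its whole window of 7617 bp in both vehicle libraries and 0 bp with EPZ011989. Its H3K4me3 was 0 and 0 bp in vehicle and 708 and 633 bp with EPZ011989, mostly outside the FOXC2 window, where 249 and 0 bp were listed. FENDRR, the long non-coding RNA gene next to FOXF1, had 10002 bp of H3K27me3 in both vehicle libraries, 0 bp with EPZ011989 and no H3K4me3 in any library, the same state as FOXF1. FOXP4-AS1 had 9487 and 9980 bp of H3K27me3 in vehicle, and its H3K4me3 was 2385 and 2971 bp in vehicle and 4712 and 3845 bp with EPZ011989.

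FOXN3-AS1 was covered by H3K27me3 over all 7440 bp in both vehicle libraries, although it lies inside FOXN3, whose own ends had 1924 and 385 bp. Its H3K4me3 was 1701 and 1767 bp in vehicle and 2459 and 2277 bp with EPZ011989. FOXP1-DT, beside the start of FOXP1, had no H3K27me3 and 2612 to 3153 bp of H3K4me3 in the 4 libraries. The lists do not record strand, and a peak between 2 genes of opposite direction cannot be given to one of them. No test was run on these genes.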
